A study of Mus musculus with 12 samples.

Results

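The vascular endothelial growth factor (VEGF) and apelin systems were followed through 9 genes, the ones in a table of 27179 whose symbol was that of a ligand (Vegfa, Vegfb, Vegfc and Apln, 4 genes) or of a receptor or co-receptor (Kdr, Flt1, Flt4, Nrp1 and Aplnr, 5 genes). RNA was sequenced from epididymal white adipose tissue (eWAT), the fat pad beside the epididymis, of 12 male C57BL/6J mice fed chow. In the epinephrine group, 6 mice were injected into the peritoneum with sodium epinephrine at 0.5 mg/kg, and in the vehicle group 6 mice were injected with saline. Fat was collected 1 h later from both. Listed ages were 18 to 23 weeks in the epinephrine group and 12 to 17 weeks in the vehicle group, 1 week apart from sample to sample, so age as listed and treatment cannot be told apart. Such even steps could also arise when a label is filled in, and whether the listed ages are the true ages could not be checked, which limits every value given for a fit with listed age. Within each group the listed age rises with the replicate number, so such a fit adjusts for a trend along these numbers. Listed ages of the groups do not overlap, so the group difference in such a fit is extrapolated along that trend. The comparison asks which of these transcripts differed in fat after the hormone that triggers lipolysis.

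VEGF-A is the main secreted growth factor of blood vessels, and adipocytes are a known source of it. It signals through VEGFR2, the receptor tyrosine kinase encoded by Kdr. VEGFR1, encoded by Flt1, binds it tightly but signals weakly, and neuropilin 1, encoded by Nrp1, is a co-receptor. VEGF-B binds VEGFR1, and VEGF-C binds VEGFR3, encoded by Flt4 and best known from lymphatic endothelium. Apelin is a secreted peptide made by endothelial cells and adipocytes, and its G protein-coupled receptor, encoded by Aplnr, is found on endothelium.

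Libraries held between 24821601 and 34405433 counts. The 12 adipocyte markers, among them Adipoq, Plin1 and Fabp4, summed to 18245 to 41148 CPM with epinephrine and 14095 to 43723 CPM with vehicle (CPM, reads scaled to a common library total), and none was at 0. Transcripts of the neighbouring epididymis were unevenly present: Gpx5, a gene of its epithelium, took 0.000875% to 1.09% of counts in epinephrine libraries and 0.000375% to 1.98% in vehicle libraries, and over 0.5% in epinephrine 1, epinephrine 2 and vehicle 2. The mean log2 CPM of 18 epididymis and testis genes was 4.16 ± 3.63 with epinephrine and 3.47 ± 3.91 with vehicle, where a two-sided exact permutation test gave p = 0.758 (adjusted p = 0.814 over 2 library measures). Here and below, means are given ± SD over 6 mice per group. In bulk tissue, fewer cells of a type and less RNA per cell cannot be told apart.

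Of the 9 genes, 1 rose with epinephrine, the ligand gene Vegfa, and 1 fell, the receptor gene Aplnr. Among all 16175 genes tested, 2.65% were called higher, 3.58% lower and 6.23% in either direction, at an adjusted p under 0.05 (edgeR quasi-likelihood test, Benjamini-Hochberg adjustment over all genes tested). Both genes were also without overlap between the groups in CPM, as were 4.79% of all genes tested, 2.04% being higher and 2.74% lower. The other 7 genes did not pass, with log2 fold changes between -0.15 and 0.19, standard errors between 0.18 and 0.26, and edgeR adjusted p-values between 0.823 and 0.995. The median log2 fold change was 0.01 over the 9 genes and -0.00059 over all genes tested.

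**Figure D1:**
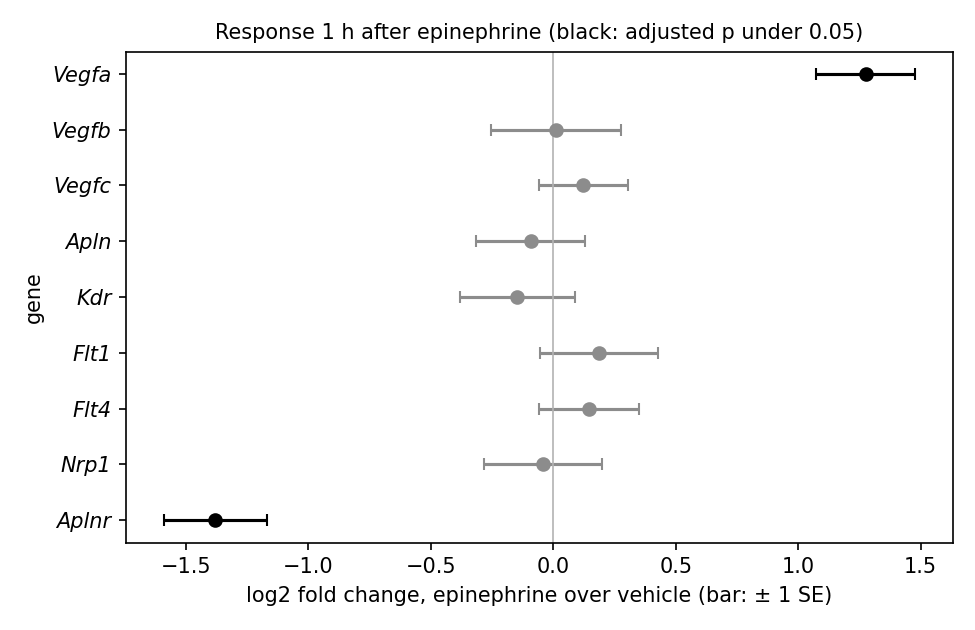
Log2 fold change, epinephrine over vehicle (x axis), of each of the 9 genes, with ligands above receptors. Points are edgeR estimates, bars are 1 standard error, and black marks an adjusted p under 0.05: Vegfa at 1.27 and Aplnr at -1.38, while the 7 grey genes lie between -0.15 and 0.19.

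Vegfa (Entrez 22339) codes for VEGF-A and lies on chromosome 17, positions 46016993 to 46032377, minus strand. Positions are those of GRCm38. It stood at 447 CPM at the lowest, 789 at the median and 1161 at the highest with epinephrine, and 283, 355 and 367 CPM with vehicle. Every epinephrine library lay above every vehicle library, and the vehicle libraries lay close together while the epinephrine libraries spread widely. The means were 809 ± 252 CPM with epinephrine and 334 ± 39.0 CPM with vehicle, a 2.42-fold difference (log2 fold change 1.27, standard error 0.20; adjusted p = 0.00318 by edgeR). Its reads numbered 12012 to 28849 per epinephrine library and 7824 to 12232 per vehicle library. In mice numbered 4 to 6 alone the log2 fold change was 1.47 (adjusted p = 0.00128, edgeR). In mice numbered 1 to 3, which include the 3 Gpx5-rich libraries, it was 1.02 (adjusted p = 0.395, edgeR) and the call was lost, as it was for every gene: 0 were called and 1356 had an unadjusted p under 0.05. Without the Gpx5-rich libraries it was 1.44 (adjusted p = 0.000239, edgeR), and with listed age as a covariate it was 0.29 (adjusted p = 0.434, edgeR), which did not pass.

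The 250 bases before the first Vegfa start listed by RefSeq are shown because Vegfa was the ligand gene that rose. Capitals mark the motifs that a letter search found on either strand. The search covered the cyclic AMP response element TGACGTCA, its core TGACG (which also counts inside a full element), the hypoxia core as ACGTG or as its variant GCGTG, the AP-1 site TGACTCA and the GC box GGGCGG.
Vegfa, chr17:46032378-46032627 (GRCm38.p6), minus strand: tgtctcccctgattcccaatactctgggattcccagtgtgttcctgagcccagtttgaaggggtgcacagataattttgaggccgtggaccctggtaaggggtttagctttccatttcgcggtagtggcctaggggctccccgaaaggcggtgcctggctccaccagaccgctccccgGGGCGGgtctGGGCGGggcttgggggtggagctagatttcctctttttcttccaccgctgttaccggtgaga
The window holds 2 GC boxes, beginning 72 and 62 bases before the start, and no match to the other motifs. A second Vegfa window, chr17:46025164-46025413, lies inside the annotated span of the gene, before a start further downstream. It holds 1 match to TGACG, 1 to ACGTG, 1 to GCGTG and 1 to the GC box. The matches to TGACG and ACGTG, beginning 209 and 211 bases before that start, overlap and share letters, so they are not separate places. Among 32851 RefSeq windows of this length, 32.7% held a GC box, 16.6% ACGTG, 28.2% GCGTG, 17.8% TGACG, 1.55% the full element and 4.46% the AP-1 site.

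The other ligand genes did not pass. Vegfb (Entrez 22340, chromosome 19, positions 6982472 to 6987651, minus strand) stood at 76.4 CPM at the lowest, 150 at the median and 205 at the highest with epinephrine, and 74.7, 155 and 189 CPM with vehicle. The ranges lay on top of each other (log2 fold change 0.01, standard error 0.26; adjusted p = 0.995 by edgeR), and the sign turned under upper quartile and library size scaling (-0.02 and -0.10). Only the fit with listed age as a covariate called it, as lower, at -1.19 (adjusted p = 0.0493, edgeR). Vegfc (Entrez 22341, chromosome 8, positions 54077532 to 54186454, plus strand) was scarce, at 6.62 to 11.6 CPM with epinephrine and 5.28 to 9.38 CPM with vehicle (log2 fold change 0.12, standard error 0.18; adjusted p = 0.859 by edgeR), from 178 to 289 reads per epinephrine library and 146 to 310 per vehicle library. Apln, the apelin gene (Entrez 30878, chromosome X, positions 48025146 to 48034853, minus strand), was at 12.5 ± 2.90 CPM with epinephrine and 13.3 ± 4.00 CPM with vehicle (log2 fold change -0.09, standard error 0.22; adjusted p = 0.927 by edgeR). Its highest value, 19.0 CPM, was in vehicle 1, and without that library the log2 fold change was 0.04 (adjusted p = 0.986, edgeR).

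Aplnr (Entrez 23796, chromosome 2, positions 85136360 to 85139923, plus strand) had 6.03, 12.9, 10.9, 13.3, 13.3 and 14.7 CPM in epinephrine libraries 1 to 6, against 30.3, 21.0, 29.9, 28.1, 40.7 and 35.0 CPM in vehicle libraries 1 to 6. The highest epinephrine value, in epinephrine 6, lay below the lowest vehicle value, in vehicle 2. Its level fell to 0.384 of that in vehicle fat (log2 fold change -1.38, standard error 0.21; adjusted p = 0.00265 by edgeR). Reads numbered 162 to 405 per epinephrine library and 582 to 1249 per vehicle library. The log2 fold change was -1.33 (adjusted p = 0.00335, edgeR) in mice numbered 4 to 6 and -1.43 (adjusted p = 0.355, edgeR) in mice numbered 1 to 3, where the call was lost. With listed age as a covariate it was -2.23 (adjusted p = 0.00259, edgeR) and kept its call.

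None of the VEGF receptor genes passed. Kdr (Entrez 16542, chromosome 5, positions 75932827 to 75979072, minus strand) was at 154 ± 42.7 CPM with epinephrine and 170 ± 46.5 CPM with vehicle (log2 fold change -0.15, standard error 0.24; adjusted p = 0.874 by edgeR). Only the fit with listed age called it, as lower, at -1.16 (adjusted p = 0.0447, edgeR). Flt1 (Entrez 14254, chromosome 5, positions 147561604 to 147726438, minus strand) was at 131 ± 34.2 CPM with epinephrine and 115 ± 35.0 CPM with vehicle (log2 fold change 0.19, standard error 0.24; adjusted p = 0.823 by edgeR). Within each group both genes spread over more than the difference between the groups, Kdr at 89.6 to 203 CPM with epinephrine and 89.9 to 233 CPM with vehicle. Flt4 (Entrez 14257, chromosome 11, positions 49609679 to 49652739, plus strand) was at 21.1 to 43.3 CPM with epinephrine and 19.7 to 43.6 CPM with vehicle (log2 fold change 0.15, standard error 0.20; adjusted p = 0.844 by edgeR). Nrp1 (Entrez 18186, chromosome 8, positions 128358591 to 128505476, plus strand), the most abundant of the receptor genes per length, was at 152 to 322 CPM with epinephrine and 133 to 356 CPM with vehicle (log2 fold change -0.04, standard error 0.24; adjusted p = 0.974 by edgeR). The sign of Nrp1 turned with the epididymal score as a covariate, to 0.05 (adjusted p = 0.861, edgeR).

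Levels of different genes were compared per length, as TPM, the reads per base of gene length scaled to a common total. With epinephrine the order of mean TPM ran from Vegfa (412 ± 131) over Vegfb (249 ± 79.3), Nrp1 (94.6 ± 24.3), Kdr (59.8 ± 16.7), Flt1 (44.1 ± 11.4), Flt4 (12.2 ± 3.08), Vegfc (10.3 ± 2.51) and Apln (8.43 ± 1.92) to Aplnr (7.06 ± 1.88). With vehicle it ran from Vegfb (264 ± 72.3) over Vegfa (182 ± 21.7), Nrp1 (104 ± 29.2), Kdr (70.7 ± 18.5), Flt1 (41.4 ± 12.0), Aplnr (19.6 ± 3.86), Flt4 (11.8 ± 2.78) and Vegfc (10.1 ± 1.96) to Apln (9.65 ± 3.02). Vegfa thus stood above Vegfb in 6 of 6 epinephrine libraries, and below it in 5 of 6 vehicle libraries. Ranges of neighbours in the order overlapped, except for Vegfb over Nrp1 and Flt1 over Flt4 with epinephrine and Vegfa over Nrp1 with vehicle. Aplnr came last with epinephrine and ahead of Flt4, Vegfc and Apln with vehicle.

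**Figure D2:**
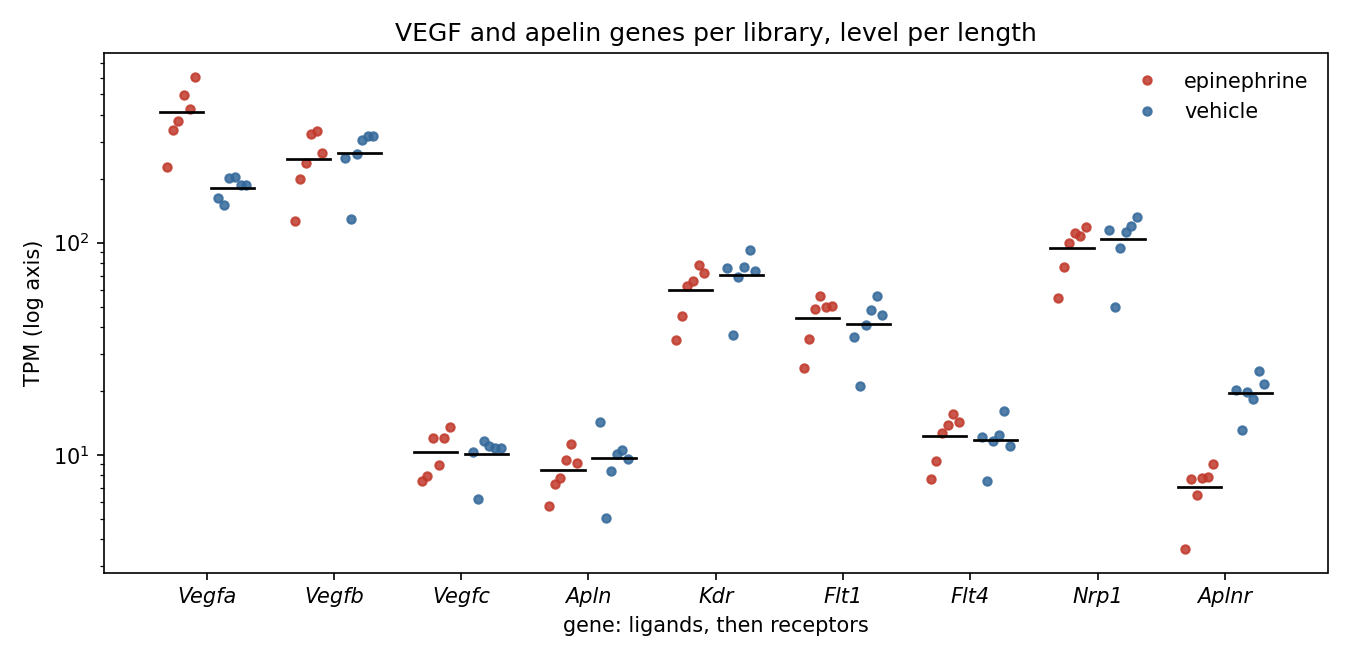
TPM (log axis) of the 9 genes in each library, ligands on the left and receptors on the right; red points are epinephrine libraries, blue points vehicle libraries, and black bars group means. Vegfa sits at 227 to 607 TPM with epinephrine and 150 to 204 TPM with vehicle, and Aplnr at 3.59 to 8.99 TPM with epinephrine and 13.1 to 24.7 TPM with vehicle.

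Ratios of TPM within a library do not depend on the scaling of libraries and are given as descriptions, with no test. Vegfa over Kdr was 5.44 to 8.39 with epinephrine and 2.02 to 4.11 with vehicle, and Vegfa over Flt1 was 7.70 to 12.1 with epinephrine and 3.33 to 7.10 with vehicle. Apln over Aplnr was 0.953 to 1.59 with epinephrine and 0.383 to 0.711 with vehicle, so the ligand transcript was below its receptor's in every vehicle library. Between the 2 receptor genes for VEGF-A, Kdr over Flt1 averaged 1.36 ± 0.142 with epinephrine and 1.73 ± 0.191 with vehicle. Here the groups lay edge to edge, with the highest epinephrine ratio at 1.586 and the lowest vehicle ratio at 1.587.

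**Figure D3:**
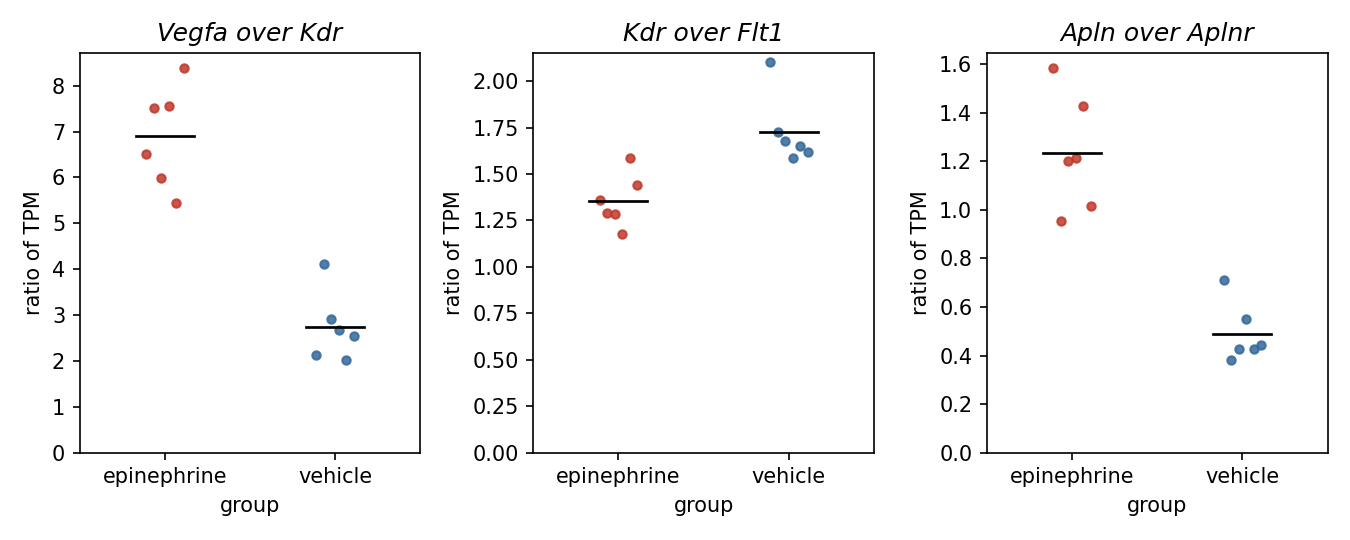
Ratios of TPM in each library, with epinephrine left of vehicle in each panel, axes from 0 and bars at the group means. Vegfa over Kdr and Apln over Aplnr are higher in every epinephrine library than in any vehicle library, and Kdr over Flt1 is lower, by a margin that at its closest is 1.586 against 1.587.

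The same window is shown for both receptor genes of VEGF-A because their ratio was lower with epinephrine, with capitals marking the motifs listed for Vegfa. The annotated spans of both genes reach further upstream.
Kdr, chr5:75978456-75978705 (GRCm38.p6), minus strand: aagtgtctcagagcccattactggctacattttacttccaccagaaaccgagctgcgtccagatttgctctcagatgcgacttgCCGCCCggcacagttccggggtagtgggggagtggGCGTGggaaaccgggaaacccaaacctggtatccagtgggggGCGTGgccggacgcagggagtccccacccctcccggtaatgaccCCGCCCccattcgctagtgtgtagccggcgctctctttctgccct
Flt1, chr5:147726012-147726261 (GRCm38.p6), minus strand: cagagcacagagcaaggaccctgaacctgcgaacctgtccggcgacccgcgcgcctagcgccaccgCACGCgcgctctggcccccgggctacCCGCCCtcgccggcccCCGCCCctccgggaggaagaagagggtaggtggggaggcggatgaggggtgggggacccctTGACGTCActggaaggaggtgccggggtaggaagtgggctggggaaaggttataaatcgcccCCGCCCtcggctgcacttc
The Flt1 window holds 1 full cyclic AMP response element, beginning 81 bases before the start, and the Kdr window holds none. Kdr has 2 GCGTG cores and 2 GC boxes, and Flt1 has 1 GCGTG core and 3 GC boxes. These are letter matches in the reference genome, and nothing was measured on them.

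Each gene was also set against the endothelial transcripts of its own library, as log2 CPM minus the mean log2 CPM of 12 endothelial genes such as Pecam1, Cdh5 and Tek. That mean itself was 6.57 ± 0.43 with epinephrine and 6.51 ± 0.41 with vehicle (exact permutation, two-sided, p = 0.814, also after adjustment over 2 measures). Relative to it, Aplnr was at -3.05 ± 0.26 with epinephrine and -1.59 ± 0.22 with vehicle, a log2 difference of -1.46 (two-sided exact permutation p = 0.00216, the smallest that 6 against 6 can give; adjusted p = 0.00974 over the 9 genes). Vegfa was at 3.03 ± 0.20 with epinephrine and 1.87 ± 0.31 with vehicle, a difference of 1.16 with the same exact permutation p and adjusted p. Against the 12 adipocyte markers, a measure chosen after seeing the data, Vegfa differed by 1.11 (exact permutation adjusted p = 0.0292) and Aplnr by -1.52 (exact permutation adjusted p = 0.0195).

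Kdr was lower relative to the endothelial genes, at 0.64 ± 0.10 with epinephrine and 0.85 ± 0.11 with vehicle, a log2 difference of -0.20 (exact permutation p = 0.00866, adjusted p = 0.0260). Flt1 was at 0.41 ± 0.06 with epinephrine and 0.27 ± 0.17 with vehicle and did not pass, with a difference of 0.15 (exact permutation p = 0.0693, adjusted p = 0.156). Both results hung on the endothelial genes chosen. Cldn5, one of the 12 and a tight junction gene, was itself higher with epinephrine. Without it Kdr did not pass, at -0.11 (exact permutation adjusted p = 0.164), and Flt1 did, at 0.24 (exact permutation adjusted p = 0.0195). Kdr also lost its call when any 1 of 8 libraries was left out, namely epinephrine 1, 2, 3 or 4 or vehicle 1, 2, 5 or 6 (exact permutation adjusted p = 0.0519 each). Paired by replicate number, Kdr was lower with epinephrine in 6 of 6 pairs, Aplnr was lower in 6 of 6 and Vegfa higher in 6 of 6. Whether mice of equal number belong together was not tested. An exact permutation of signs within the pairs, added after seeing the data, gave p = 0.03125 for each of these 3 genes, the smallest that 6 pairs can give, and an adjusted p of 0.09375 over the 9 genes. Vegfb, Vegfc, Apln, Flt4 and Nrp1 differed by -0.12 to 0.09, with exact permutation adjusted p-values from 0.545 to 0.665.

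**Figure D4:**
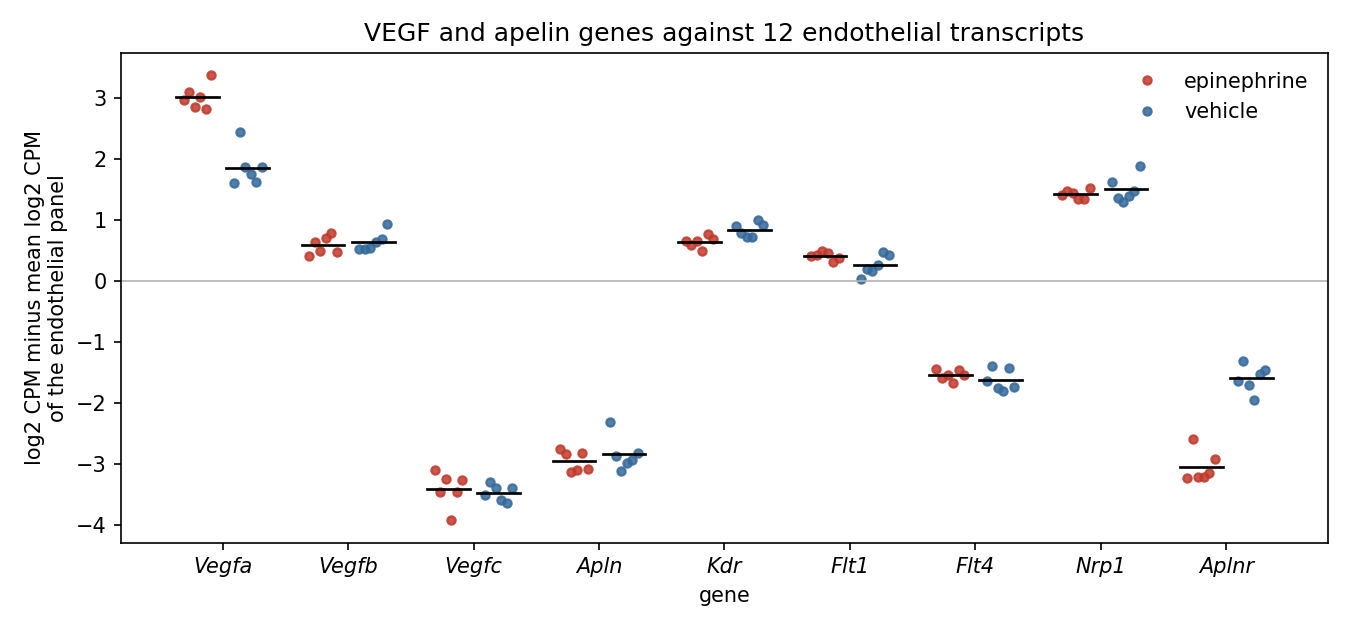
Log2 CPM of each gene minus the mean log2 CPM of 12 endothelial genes in the same library; red points are epinephrine libraries, blue points vehicle libraries, and bars group means. Aplnr and Vegfa separate fully by group, Kdr overlaps slightly, and the other genes overlap.

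All 9 genes were at their lowest CPM of the epinephrine group in epinephrine 1 and at their lowest of the vehicle group in vehicle 2, both rich in Gpx5. In epinephrine 2, also rich in Gpx5, Aplnr had 12.9 CPM, above the mean of its group (11.8) but below the median (13.1). Each of the other genes lay below its group mean there. Over the 12 libraries, deviations of log2 CPM from the group means ran against those of the 18 epididymis and testis genes. Pearson's r lay between -0.89 for Nrp1 and -0.71 for Apln. The same deviations ran with those of the 12 adipocyte markers, at r from 0.75 for Vegfa to 0.98 for Flt1. With the 12 endothelial genes r went from 0.79 for Vegfa to 0.97 for Kdr. The fit without the 3 Gpx5-rich libraries and the fit with epididymal score as covariate kept the calls of Vegfa and Aplnr and called none of the other 7 genes.

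**Figure D5:**
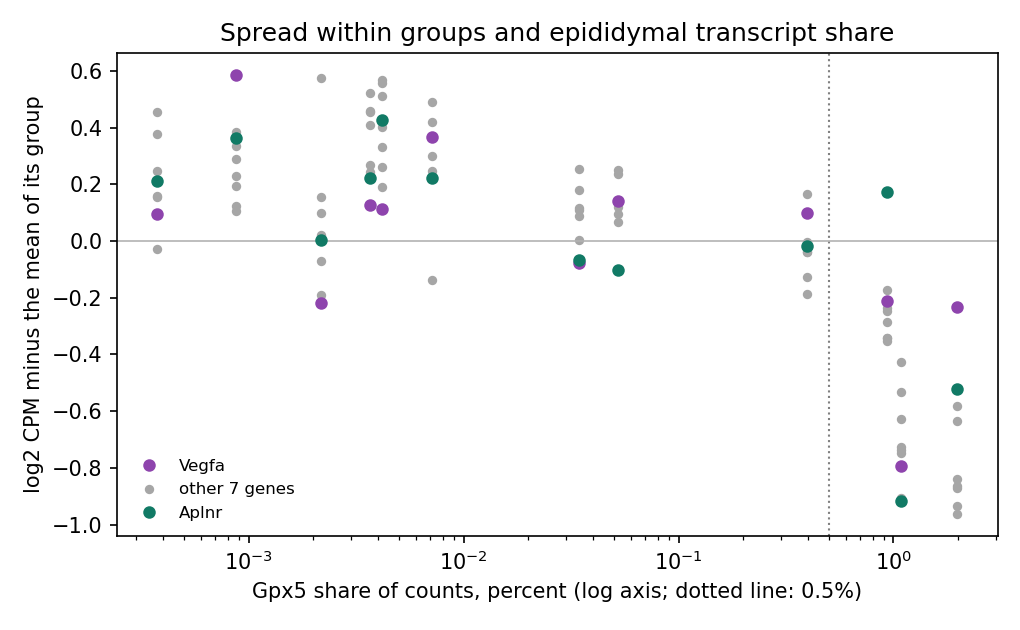
Log2 CPM of each gene minus its group mean (y axis) against the percent of counts from Gpx5 (log x axis), 1 column of points per library; purple is Vegfa, green Aplnr and grey the other 7 genes. The dotted line at 0.5% has 3 libraries to its right, among them epinephrine 1 and vehicle 2, where all 9 genes were lowest within their group.

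The genes most alike were ranked among 13047 by Pearson's r of log2 CPM deviations from the group means over 12 libraries, with Spearman's rho beside it. For Vegfa they were Myom3 (r = 0.98, rho = 0.94), Myrip (r = 0.96, rho = 0.98) and Grn (r = 0.96, rho = 0.97). For Aplnr they were Fam107a (r = 0.98, rho = 0.92), Psme1 (r = 0.97, rho = 0.92) and Vdac3 (r = 0.97, rho = 0.95). None of these 6 genes differed between the groups by the test, with edgeR adjusted p-values from 0.821 to 0.999. These are the best of many genes in libraries that share the uneven epididymal content.

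The wider pathway was read from 8 lists with 100 genes beyond the 9. Of these, 99 were tested, 7 were called higher and 1 lower, and their median log2 fold change was 0.09. Of all genes tested, 2.65% were called higher and 3.58% lower, and the median log2 fold change was -0.00059. Among related ligands and receptors none of 3 tested passed in edgeR, where 1 had an unadjusted p under 0.05, and by DESeq2 and limma on variance-stabilized values 0 passed. Pgf, which encodes placental growth factor, a VEGFR1 ligand, was at 20.5 ± 11.5 CPM with epinephrine and 9.45 ± 7.25 CPM with vehicle (log2 fold change 1.12, standard error 0.50; adjusted p = 0.280 by edgeR), and it passed in mice numbered 4 to 6 at 1.83 (adjusted p = 0.00435, edgeR) and by limma-voom at 1.41 (adjusted p = 0.0153). Vegfd and Nrp2 had log2 fold changes of -0.07 and 0.03 (adjusted p = 0.940 and 0.979, edgeR). Apela, which encodes a further ligand of the apelin receptor, had 3 reads in all in each group and was not tested.

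None of 6 angiopoietin and Tie genes passed in edgeR, 1 having an unadjusted p under 0.05. Angpt2, which encodes a Tie2 ligand released by endothelium, came nearest, at 11.05 to 23.1 CPM with epinephrine and 7.30 to 13.8 CPM with vehicle (log2 fold change 0.75, standard error 0.21; adjusted p = 0.0555 by edgeR), and it passed without the Gpx5-rich libraries at 0.87 (adjusted p = 0.00165, edgeR). DESeq2 and limma-voom called it on all libraries, at 0.77 and 0.80 (adjusted p = 0.00710 and 0.00183), while limma on variance-stabilized values called 0 of the 6. Angpt4 and Tie1 were at 0.43 (adjusted p = 0.389, edgeR) and -0.17 (adjusted p = 0.824, edgeR). None of 7 ligand processing genes passed by any of the 4 tools, and 1 had an unadjusted p under 0.05 in edgeR. The genes of smallest p were the proprotein convertase genes Furin at 0.16 (adjusted p = 0.266, edgeR) and Pcsk7 at 0.13 (adjusted p = 0.480, edgeR) and the neprilysin gene Mme at 0.27 (adjusted p = 0.591, edgeR). None of 13 neuropilin partner genes passed in edgeR, where 2 had an unadjusted p under 0.05, or by limma on variance-stabilized values, whereas DESeq2 called 1 (Sema3f) and limma-voom 2 (Sema3f and Plxna2). Sema3f, a neuropilin ligand gene, was at 0.44 (adjusted p = 0.0944, edgeR) and passed without the Gpx5-rich libraries at 0.57 (adjusted p = 0.000627, edgeR), and so did Plxna2, at 0.41 (adjusted p = 0.288, edgeR) with all libraries and 0.51 (adjusted p = 0.00386, edgeR) without those. Sema3a was at -0.38 (adjusted p = 0.573, edgeR).

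Of 20 genes of the hypoxia pathway, a known inducer of Vegfa, 4 were called higher and 0 lower, where 2.65% and 3.58% of all genes tested were, and the list's median log2 fold change was 0.14. Hilpda, which encodes an inhibitor of adipose triglyceride lipase, was at 32.9 ± 11.1 CPM with epinephrine and 7.84 ± 1.84 CPM with vehicle (log2 fold change 2.07, standard error 0.25; adjusted p = 0.000622 by edgeR). The glucose transporter gene Slc2a1 was at 24.5 ± 2.77 CPM with epinephrine and 16.5 ± 2.23 CPM with vehicle (log2 fold change 0.57, standard error 0.10; adjusted p = 0.00707 by edgeR). Hif1a, which encodes the oxygen-regulated transcription factor subunit, was 1.25-fold higher, at 120 ± 7.23 CPM with epinephrine and 96.2 ± 7.06 CPM with vehicle (log2 fold change 0.32, standard error 0.06; adjusted p = 0.00987 by edgeR). Pgk1, a glycolysis gene, was 1.19-fold higher, at 73.3 ± 2.92 CPM with epinephrine and 61.7 ± 3.91 CPM with vehicle (log2 fold change 0.25, standard error 0.05; adjusted p = 0.0138 by edgeR). In mice numbered 4 to 6, Slc2a1, Hif1a and Pgk1 missed the threshold (adjusted p = 0.0509, 0.0842 and 0.0995, edgeR). With listed age as a covariate, none of the 4 passed, Hilpda, Slc2a1, Hif1a and Pgk1 having adjusted p-values of 0.0679, 0.0729, 0.260 and 0.345 in edgeR.

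The median log2 fold change of 30 genes of VEGF receptor signalling was 0.04. Of them, 1 was called higher and 0 lower, beside 2.65% and 3.58% of all genes tested. This was Mapkapk2, which encodes a kinase downstream of p38, at 192 ± 24.97 CPM with epinephrine and 149 ± 10.4 CPM with vehicle (log2 fold change 0.37, standard error 0.09; adjusted p = 0.0351 by edgeR). Its call was lost with no filter on low counts (adjusted p = 0.0709, edgeR), under upper quartile scaling (adjusted p = 0.0546, edgeR), with listed age, in mice 1 to 3, and when epinephrine 3, 4, 5 or 6 or vehicle 1, 3, 4 or 6 was left out. Sh2d2a, which encodes a VEGFR2 adaptor, was at 3.34 ± 1.27 CPM with epinephrine and 1.73 ± 0.345 CPM with vehicle (log2 fold change 0.94, standard error 0.26; adjusted p = 0.0523 by edgeR), and passed without the Gpx5-rich libraries at 1.15 (adjusted p = 0.0119, edgeR) and by DESeq2 and limma-voom (adjusted p = 0.00654 and 0.00658). Nck1, another adaptor gene, was at -0.16 (adjusted p = 0.0921, edgeR) and passed by DESeq2 and limma-voom (adjusted p = 0.0472 and 0.0344).

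Of 15 genes for other angiogenic ligands, 1 was called higher and 1 lower, and of 9 tip cell genes, which mark the leading cells of a sprouting vessel, likewise 1 and 1. Over all genes tested the shares were 2.65% higher and 3.58% lower. Thbs1, which encodes the angiogenesis inhibitor thrombospondin 1, was 7.28-fold higher, at 816 to 2601 CPM with epinephrine and 89.1 to 352 CPM with vehicle (log2 fold change 2.86, standard error 0.44; adjusted p = 0.00282 by edgeR). Cxcr4, the chemokine receptor gene of the tip cell list, was 3.47-fold higher, at 16.4 to 44.0 CPM with epinephrine and 4.26 to 10.3 CPM with vehicle (log2 fold change 1.79, standard error 0.28; adjusted p = 0.00271 by edgeR). Pdgfb, which encodes the endothelial signal that recruits pericytes and stands in both lists, fell to 0.597 of its level in vehicle fat, at 42.1 ± 8.81 CPM with epinephrine and 70.5 ± 12.6 CPM with vehicle (log2 fold change -0.74, standard error 0.16; adjusted p = 0.0183 by edgeR). With listed age as a covariate Thbs1 and Cxcr4 did not pass (adjusted p = 0.133 and 0.343, edgeR). Efnb2, which encodes an arterial ephrin, was at 0.35 (adjusted p = 0.0909, edgeR) and passed by DESeq2 and limma-voom (adjusted p = 0.0247 and 0.0240).

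Marker genes of the cell types that could carry these transcripts were counted in the same way. Their counts stand beside 2.65% called higher and 3.58% lower over all genes tested. Of the 12 endothelial genes, which summed to 870 to 1843 CPM with epinephrine and 760 to 1751 CPM with vehicle, 1 was called higher, Cldn5, and Egfl7 was at -0.14 (adjusted p = 0.771, edgeR). Cldn5 was at 216 ± 76.9 CPM with epinephrine and 103 ± 25.2 CPM with vehicle (log2 fold change 1.06, standard error 0.26; adjusted p = 0.0355 by edgeR), and its call was lost with listed age, in mice 1 to 3, and when epinephrine 3, 4, 5 or 6 or vehicle 1, 3, 5 or 6 was left out. Of 13 capillary, arterial and venous genes 1 was called lower, Nr2f2, which encodes the venous factor COUP-TFII, at -0.33 (adjusted p = 0.0311, edgeR), a call lost with no filter (adjusted p = 0.0503, edgeR), on variance-stabilized values (adjusted p = 0.0511, limma), in mice 1 to 3 and in mice 4 to 6, and without epinephrine 3 or 4 or any 1 of vehicle 1, 3, 4, 5 and 6. The lymphatic markers summed to 176 to 253 CPM with epinephrine and 158 to 208 CPM with vehicle, and none of 7 tested passed in edgeR, Prox1 being at 0.72 (adjusted p = 0.255, edgeR) and Lyve1 at 0.61 (adjusted p = 0.273, edgeR), the 2 with an unadjusted p under 0.05. Limma-voom called 3 of them, Prox1 (1.01, adjusted p = 0.0428), Lyve1 (0.62, adjusted p = 0.0304) and Mmrn1, and edgeR called Lyve1 without the Gpx5-rich libraries at 0.70 (adjusted p = 0.00836, edgeR). DESeq2 called 1, Ccl21a, which did not pass the filter in edgeR, and limma on variance-stabilized values called 0. In edgeR no marker passed among 12 adipocyte, 10 macrophage, 10 fibroblast and progenitor, 8 mesothelial and 18 epididymis and testis genes, and 0 of them had an unadjusted p under 0.05. By DESeq2 and by limma on variance-stabilized values the counts were also 0, and limma-voom called 1, the macrophage gene Mertk (0.25, adjusted p = 0.0484), which edgeR also called without the Gpx5-rich libraries at 0.30 (adjusted p = 0.0163, edgeR). The smooth muscle gene Tagln was called higher, 1 of 10 in its list, at 0.53 (adjusted p = 0.0123, edgeR), a call lost with listed age and in mice 1 to 3. Acta2 of that list did not pass, at 0.51 (adjusted p = 0.166, edgeR), and 2 of the list had an unadjusted p under 0.05 in edgeR. Limma-voom called Tagln and Acta2 (0.57, adjusted p = 0.0161), and DESeq2 and limma on variance-stabilized values called Tagln alone. EdgeR called Acta2 with the epididymal score (adjusted p = 0.0377), with listed age (0.0238) and without vehicle 2 (0.0293). The red cell gene Hbb-bs was called lower, 1 of 5 tested, at -0.997 (adjusted p = 0.0421, edgeR), and lost its call with the replicate block (adjusted p = 0.0598, edgeR), under RLE scaling (0.0504), with no filter (0.0536), on variance-stabilized values (0.0837, limma), without the Gpx5-rich libraries (0.0601), in mice 1 to 3, and without any 1 of 10 libraries, all but vehicle 1 and 2.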

How the data were processed

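Libraries from eWAT of 12 mice were made with a SMARTER mRNA-Seq kit after TRIzol and RNeasy extraction, per the labels' protocols. The build mm10 (GRCm38) and the tools HISAT2, featureCounts, cutadapt, FastQC and DESeq2 are named in the submitters' processing notes, without versions. Annotation and strand setting: not given in the sources used here. The authors deposited whole-number counts per gene with gene lengths (27179 genes) and variance-stabilized values on a log2 scale (20185 genes), the second used in an alternative.

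Counts were filtered with filterByExpr (minimum count 10, minimum total 15), scaled with TMM and tested with edgeR 4.0.16 (robust quasi-likelihood F test, R 4.3.3) on 16175 genes, with Benjamini-Hochberg adjustment and a threshold of 0.05. All 9 members passed the filter. The standard error is the unshrunk log2 fold change over the square root of F. The common biological coefficient of variation came to 0.451. CPM used TMM-scaled totals, and log2 CPM were computed with a prior count of 1. Only the main edgeR fit was run on simulated counts, in which genes varied independently. The alternatives and the permutation tests were not simulated. Exact permutation tests (SciPy 1.17.1) covered 924 splits, or, paired by replicate number, the signs within 6 pairs. Alternatives were other scalings and filters, DESeq2 1.42.0, limma 3.58.1 on voom and on variance-stabilized values, covariates and subsets of libraries. The limma-voom fit used voom with quality weights, so its libraries did not count equally.

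The titles number the mice 1 to 6 in both groups. Deviations from the group means correlated between libraries of the same number, across genes, at 0.262 to 0.799 in 6 pairs. Libraries of different numbers were not compared, so these values do not show that equal numbers belong together. The highest was for number 2, where both libraries were rich in Gpx5. The number was used as a block in 1 alternative and for the pairs of the sign permutation. The titles call the samples biological replicates, and p-values measure the spread between these mice. Members and lists were chosen with earlier results of these data known. The rule for named genes took the 9 members, up to 3 genes of each pathway list and up to 2 of each marker list by smallest p, and the 3 genes most like each called member. Pgk1 was added after its values were seen, as the fourth called gene of its list. Of the 9 genes, 1 (Nrp1) shares exon sequence with another gene, the microRNA gene Mir1903 on the same strand. Promoter windows are RefSeq's on GRCm38.p6 and matched 8 of the 9 genes.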

Additional observations from a re-analysis of the deposited data

Results flagged for a closer look

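CPM of the 9 genes and their ratios were examined in 26 groups of 6 libraries for a single library far from the rest by Dixon's criterion, which chance alone meets in a small share of groups (5% by construction). Vegfc was at 5.28 CPM in vehicle 2, the lowest of its group, where the next lowest library had 8.24 CPM. The ratio of Kdr to Flt1 was 2.11 in vehicle 1, the highest of its group, where the next highest library had 1.73.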

How the results depend on the processing

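Vegfa and Aplnr kept their calls and directions in the 14 alternatives tried, except that Vegfa was at 0.29 with listed age as a covariate and at 1.02 in mice numbered 1 to 3, and Aplnr at -1.43 in mice 1 to 3, all without a call. Leaving out 1 library at a time gave 1.14 to 1.40 for Vegfa and -1.45 to -1.24 for Aplnr. With listed age the log2 fold changes were -1.19 for Vegfb and -1.16 for Kdr, both called, and -0.60 for Vegfc, -0.91 for Flt1, -0.73 for Flt4, -1.04 for Nrp1 (edgeR adjusted p = 0.0601) and -0.54 for Apln, so 0 members were called higher and 3 lower, Aplnr being the third. Listed age rises with the replicate number, and the Gpx5 share fell along the same order. It went from 1.09% in epinephrine 1 to 0.000875% in epinephrine 6, and from 1.98% in vehicle 2 to 0.000375% in vehicle 6. Vehicle 1 stood apart at 0.00217%. The fit with listed age cannot tell age from this order, so its calls are no measure of age alone. In mice 1 to 3, 0 members were called either way. Signs near 0 turned for Vegfb (-0.021 with upper quartile scaling, -0.098 with library size scaling, which moved the median of all genes to -0.11, -0.030 in mice 1 to 3 and -0.11 to 0.15 with 1 library left out), for Apln (0.052 in mice 4 to 6 and -0.20 to 0.036) and for Nrp1 (0.046 with limma-voom, 0.000306 on variance-stabilized values, 0.048 with the epididymal score, 0.027 without the Gpx5-rich libraries and -0.16 to 0.076). The cause was not tested.

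Genes called higher, 428, numbered 761 with DESeq2, 1026 with limma-voom, 2339 with listed age, 691 with the epididymal score, 786 without the Gpx5-rich libraries, 0 in mice 1 to 3 (1356 genes had an unadjusted p under 0.05 in edgeR; no other tool was run on this subset) and 696 in mice 4 to 6. Genes called lower, 579, numbered 1448 with library size scaling, 873 with DESeq2, 1503 with limma-voom, 1528 with listed age, 998 with the epididymal score, 1028 without the Gpx5-rich libraries, 0 in mice 1 to 3 and 276 to 797 with 1 library left out. The replicate block gave 365 lower and 385 higher genes, with Vegfa at 1.22 and Aplnr at -1.40, and changed no call of the 9 genes in edgeR. Relative to the endothelial genes the replicate block ended the calls of Vegfa (1.16), Kdr (-0.20) and Aplnr (-1.46), since 6 pairs cannot reach an adjusted p under 0.05 there with only 3 genes at the smallest p.

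Relative to the endothelial genes and without the Gpx5-rich libraries, Vegfa was at 1.27 and Aplnr at -1.47, neither past the threshold, and 4 against 5 mice cannot go below p = 0.0159 in the exact permutation test. Kdr lost its call there (-0.20), against Pecam1 and Cdh5 alone (-0.15), without Cldn5 (-0.11) and against the adipocyte markers (-0.26), and ran from -0.23 to -0.17 with 1 library left out. Flt1 gained a call against Pecam1 and Cdh5 (0.20) and without Cldn5 (0.24). Without Cldn5 Vegfb was at 0.032 and Nrp1 at 0.00935. With 1 library left out Vegfb ran from -0.10 to 0.00377 and Vegfc from -0.00189 to 0.16.

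Vegfc, Apln and Aplnr rested on the fewest reads of the 9 genes, and the standard errors of 0.18 to 0.26 leave small changes of the 7 other genes undetectable.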
